A study of Rattus norvegicus with 9 samples.

Results

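The genes described here mark the endothelium of brain blood vessels and the barrier it forms between blood and brain tissue. They are Cldn5, Pecam1, Flt1, Kdr, Tek, Vwf, Slco1a4, Abcb1a, Slc2a1 and Ly6c, and a probe set of the array counted as a member when the platform annotation gave it 1 of these symbols and no other. Of the 10 genes, 9 had such a probe set, with Tek the exception, and together they had 13 of the 15866 probe sets that were not controls. Probe sets with a mean in the lowest 40% of the array were left out of the tests, which kept 9520 probe sets, among them 9 member probe sets of 7 genes. Pecam1, Ly6c and 2 of the 3 Flt1 probe sets fell below that level. A further probe set carried the symbols of Abcb1a and its close relative Abcb1b, and was not used as a member.

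The samples were 9 male Lewis rats, an inbred strain, of 200 to 250 g, out of 20 that went through the behavioural tests. They received no treatment and form 1 group, and their age is not given in the labels. Prefrontal cortex (areas Fr1 and Fr2) was taken 12 days after the last test, and RNA of each rat went onto 1 Affymetrix array. Each rat has 4 behavioural values in the labels, all without units: sugar feeding, plus maze, locomotion and startle, and the question of the series is whether brain mRNA levels go with behaviour among animals of the same strain.

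Endothelial cells of brain capillaries are sealed to each other by tight junctions, and they allow little leakage and little transport by vesicles. Much of what enters or leaves the brain therefore passes through carriers in their membranes. Glucose passes through Slc2a1. Organic anions, steroids and some drugs can pass through carriers such as Slco1a4 or outward through the pump Abcb1a. Vascular growth factors act on these cells through receptor tyrosine kinases, and Vwf is a large adhesive glycoprotein that endothelium stores and releases. In whole tissue, a change in the number of such cells and a change in RNA per cell cannot be told apart.

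Cldn5, Slco1a4 and Abcb1a had pairwise correlations of 0.641 to 0.805 across the 9 rats, and Kdr had 0.182 to 0.575 with the other members. Without rat 3 these were 0.227 to 0.473 and 0.138 to 0.714, so the contrast rests on rat 3. Without rats 8 and 9 they were 0.701 to 0.877 and -0.225 to 0.532. The RefSeq promoter table, on build GRCr8, held 6 of the 7 kept genes, with Vwf the exception. The windows of these 4 genes are shown to set these 3 genes beside Kdr. These 3 were not the only members that went together. Flt1, whose window is in the table but not shown, had r of 0.763, 0.787 and 0.866 with Cldn5, Slco1a4 and Abcb1a over the 9 rats. Each is the 250 bases before the table's start of the gene, 5′ to 3′ on the gene's strand, and capitals mark GGAA or its complement TTCC, the core letters of sites of the ETS family of transcription factors, to which several regulators of endothelial genes belong. The windows lie at chr11:95718599-95718848 (minus strand) for Cldn5, chr4:176495847-176496096 (minus) for Slco1a4, chr4:26397649-26397898 (minus) for Abcb1a and chr14:32571813-32572062 (plus) for Kdr. The table's start of Abcb1a lies inside the gene's full annotated extent.
Cldn5: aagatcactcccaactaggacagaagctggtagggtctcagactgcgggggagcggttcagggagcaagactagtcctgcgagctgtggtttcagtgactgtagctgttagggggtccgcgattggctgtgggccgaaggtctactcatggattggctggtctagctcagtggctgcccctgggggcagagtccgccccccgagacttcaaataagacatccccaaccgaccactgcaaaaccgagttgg
Slco1a4: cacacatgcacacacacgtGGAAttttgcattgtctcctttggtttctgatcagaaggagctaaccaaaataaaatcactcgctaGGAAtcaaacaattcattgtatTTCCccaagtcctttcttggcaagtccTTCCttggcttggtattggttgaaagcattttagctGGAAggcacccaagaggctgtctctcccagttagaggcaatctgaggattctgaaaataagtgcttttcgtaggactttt
Abcb1a: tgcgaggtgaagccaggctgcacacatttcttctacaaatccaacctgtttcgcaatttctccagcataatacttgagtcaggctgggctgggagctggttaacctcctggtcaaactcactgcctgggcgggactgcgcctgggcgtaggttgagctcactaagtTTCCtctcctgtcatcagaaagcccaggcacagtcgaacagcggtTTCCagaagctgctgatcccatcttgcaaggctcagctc
Kdr: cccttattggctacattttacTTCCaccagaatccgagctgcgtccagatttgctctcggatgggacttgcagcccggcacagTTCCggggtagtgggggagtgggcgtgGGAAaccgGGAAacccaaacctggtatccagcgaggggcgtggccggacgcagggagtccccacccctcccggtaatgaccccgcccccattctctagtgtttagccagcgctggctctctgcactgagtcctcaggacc

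On both strands, GGAA was found 5 times for Slco1a4, 4 for Kdr, 2 for Abcb1a and 0 for Cldn5, and 93.2% of the 33469 promoter windows of the same length held it at least once. The GC box GGGCGG was found once each for Cldn5, Abcb1a and Kdr and 0 times for Slco1a4, against 30.5% of all windows. The SOX core AACAAT was found only for Slco1a4 among the 6 member genes in the table (10.3% of all windows), as was the E box CACGTG (5.59%). The GATA core AGATAA was found for none of the 6 (10.3%), and TATAAA for Flt1 alone (12.9%). The base composition also differed among the 4 windows shown, from 42.4% G and C for Slco1a4 to 61.6% for Kdr. Of the 6 member genes in the table Flt1 was highest, at 73.2%. A match is a description of letters and does not show a bound site.

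The claudin of the barrier was measured well above the array's floor. Cldn5, the tight junction protein that closes the cleft between brain endothelial cells, ran from 9.07 log2 units in rat 4 through a median of 9.19 to 9.68 in rat 3. Rat 3 lay 0.26 above the next rat, rat 6, and the other 8 rats had an SD of 0.12. Over all 9 rats the mean was 9.26 ± 0.19 (SD, n = 9) and the highest rat had 1.53 times the expression of the lowest.

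Pecam1, an adhesion molecule of endothelial cells and platelets, was at the dim end of the array. Its single probe set ran from 2.36 to 2.54 with a median of 2.43, below the lowest mean that was kept, 3.22. Ly6c, a surface protein of the Ly6 family, ran from 2.29 to 2.48 with a median of 2.36. The median of all probe sets left out as dim lay between 2.38 (rat 2) and 2.51 (rat 3). Rat 3 was therefore the highest rat for this floor as well as for 3 of the 4 dim member probe sets, which spanned at most 0.23 log2 units.

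The receptors of vascular growth factors behaved differently from each other. Kdr, the main signalling receptor for Vegfa, ran from 4.52 in rat 9 through a median of 5.24 to 5.39 in rat 1, and the mean was 5.16 ± 0.27 (SD, n = 9). Rat 9 lay 0.46 below the next lowest rat, and the other 8 rats lay within 4.98 to 5.39. Flt1, which also binds Vegfa and can serve as a decoy for it, had a kept probe set that ran from 3.58 in rat 9 through 3.73 to 3.93 in rat 3. Its range of 0.35 log2 units was the smallest among the 9 kept member probe sets, and its mean was 3.74, beside 3.22 for the lowest mean kept. The other Flt1 probe sets, at means of 2.94 and 2.42, were dim. Tek, the receptor of the angiopoietins, was not analysed here.

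Vwf was dim as well, but passed the filter. It ran from 3.50 in rat 9 through a median of 3.59 to 4.02 in rat 3, with rat 6 next at 3.85. The other 7 rats lay close together, between 3.50 and 3.67.

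Slco1a4 and Abcb1a had the widest ranges of the members. Slco1a4, a carrier of organic anions on the membranes of brain endothelium, had a bright probe set (1387093_at) that ran from 8.04 in rat 5 through a median of 8.33 to 8.97 in rat 3, a 1.91-fold range. Its second probe set (1387094_at) was dimmer and went with other rats, from 4.03 in rat 1 through 4.45 to 5.12 in rat 2. The probe sets correlated at r = 0.412 over the 9 rats (p = 0.275, exact permutation) and rho = 0.469 (p = 0.205, exact permutation), with r = 0.605 without rats 3 and 5 (those most distant from the first probe set's median), and 0.319 without rats 8 and 9.

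Abcb1a, the P-glycoprotein pump that returns drugs to the blood, had 2 kept probe sets. The first (1370465_at) ran from 5.48 in rat 9 through 6.16 to 6.79 in rat 3, a 2.49-fold range and the widest of the members. The second (1370464_at) ran from 3.77 in rat 9 through 4.04 to 4.78 in rat 3. There rat 3 stood 0.65 above rat 6, the next highest, while the other 8 rats had an SD of 0.14. The probe sets correlated at r = 0.805 (p = 0.011, exact permutation) and rho = 0.644 (p = 0.0688, exact permutation), and at 0.260 without rats 3 and 9 (those most distant from the first probe set's median). The r was 0.576 without rat 3 alone and 0.780 without rats 8 and 9. The probe set shared with Abcb1b was also highest in rat 3, at 3.85, with the other rats between 3.27 and 3.54. That probe set does not tell these genes apart.

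Slc2a1, the glucose carrier GLUT1, which is present in endothelium and in astrocytes, followed another order. It ran from 7.77 in rat 4 through a median of 8.07 to 8.37 in rat 8, and rat 3 was next at 8.36. Rats 4 and 7 were lowest, at 7.77 and 7.78, and the range was 1.52-fold.

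**Figure D1:**
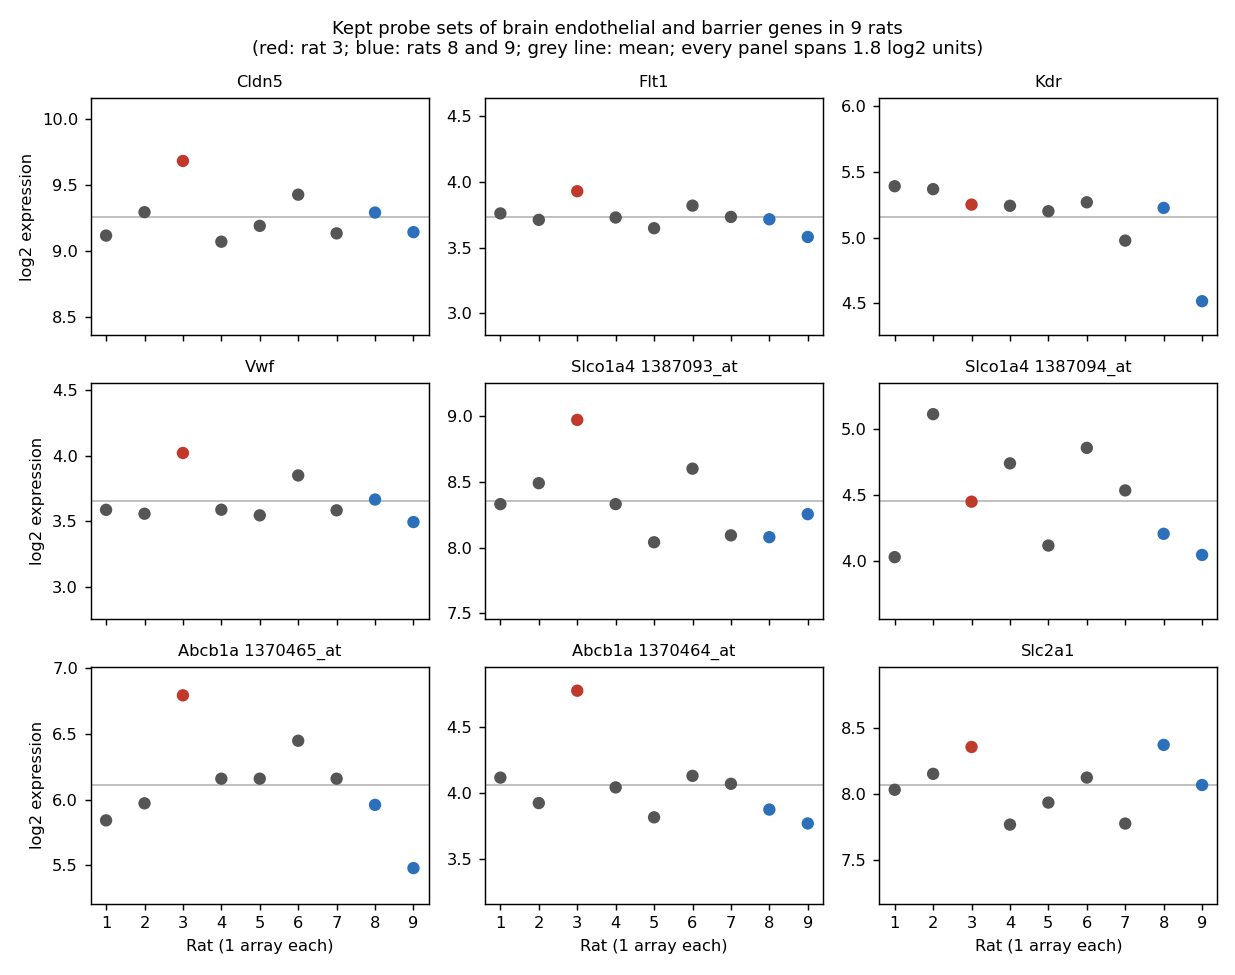
Log2 expression of the 9 kept member probe sets in each rat, 1 point per array, with the mean as a grey line; rat 3 is red and rats 8 and 9 are blue, and every panel spans the same number of log2 units. Rat 3 is highest in 6 panels and rat 9 lowest in 5, and the panels where another rat is highest are Kdr, Slc2a1 and the second Slco1a4 probe set (1387094_at).

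Rat 3 was the highest rat for 6 of the 9 kept member probe sets, where it was highest for 19.9% of all 9520. Rat 9 was the lowest for 5 of the 9, against 20.7% of all. The mean z score of the 7 genes, each by its kept probe set of highest mean, was 1.70 in rat 3 and 0.75 in rat 6, and it was -1.08 in rat 9. The other 6 rats lay between -0.55 and 0.09. Rat 3 was also the rat with the highest startle value, 501, and the lowest locomotion value, 536, and it shared the lowest plus maze value, 0, with rat 9.

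Rats 8 and 9 differed from the rest over many genes: for 26.9% of all kept probe sets both lay outside the values of the 7 remaining rats, on 1 side. This held for 0 of the 9 member probe sets. The mean of rats 8 and 9 differed from that of the other 7 rats by between -0.50 for the first Abcb1a probe set (1370465_at) and 0.20 for Slc2a1. The labels name no batch. Correlations of members are given with and without these arrays, and slopes of genes outside the members over all 9 rats only. Median log2 expression over all 15866 probe sets lay between 4.11 and 4.28 in the 9 arrays, and the correlation between 2 arrays between 0.988 and 0.998. With 9 arrays, precision is limited.

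The levels of the 7 kept genes were positively correlated across the rats, less so without rat 3. Over the 21 pairs of the 7 genes, the median Pearson r was 0.641 and the values ran from 0.182 (Kdr and Slc2a1) to 0.915 (Cldn5 and Vwf), so that 21 of 21 were above 0. Over all 45310440 pairs of kept probe sets the median r was 0.044 and 53.9% were above 0. Without rat 3 the member median was 0.436 (0.055 over all pairs), with 20 of 21 above 0. Without rats 8 and 9 it was 0.779 (0.016 over all pairs), again with 20 of 21 above 0.

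To place the pairs among all genes, the log2 value of each member gene was used in turn as the regressor in a limma fit over the other 9519 kept probe sets. None of the 42 ordered pairs passed a limma adjusted p of 0.05, and 22 had an unadjusted limma p under 0.05. With an adjusted p under 0.05 the regressors called 0% of the other probe sets, except Kdr with 0.0315%. With Cldn5 as regressor 5 of the other 6 genes had an unadjusted p under 0.05, beside 11% of all probe sets. With Flt1, Vwf, Slco1a4 and Abcb1a it was 4 of 6 each, beside 16.7%, 14.9%, 12% and 14.4% of all. With Slc2a1 it was 1 of 6, the pair with Cldn5, beside 10.7%, and with Kdr 0 of 6, beside 12.9%. Without rat 3, 5 of the 42 ordered pairs had an unadjusted p under 0.05 and 0 passed the adjusted threshold. With the other kept probe sets of Slco1a4 (1387094_at) and Abcb1a (1370464_at) in place of the leading ones, 14 of the 42 had an unadjusted p under 0.05. There it was 0 of 6 with Slco1a4 as regressor and 3 of 6 with Abcb1a, so the count for Slco1a4 holds for its bright probe set only. The shares of all probe sets are not given for the fits without rat 3 or with the other probe sets. The counts of those fits are therefore not set against all genes.

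Flt1 and Vwf were the pair with the lowest permutation p. Their r was 0.911 (p = 0.000463, exact permutation) and their rho 0.850 (p = 0.00607, exact permutation), with limma adjusted p of 0.0577 and 0.131 by regressor. Without rats 3 and 9 (those most distant from the Flt1 median), r was 0.787, without rats 8 and 9 it was 0.944 and without rat 3 it was 0.795 (p = 0.0232, exact permutation). Both genes lay near the floor of the array. When the dim probe sets were kept in the fit, Flt1 as regressor called 20.2% of all 15865 other probe sets and Vwf 3.97%, while Cldn5, Slco1a4, Abcb1a and Slc2a1 called 0%. The part of the array's floor in the relation of Flt1 and Vwf was not tested.

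Cldn5 and Vwf had r = 0.915 (p = 0.00363, exact permutation) but rho = 0.417 (p = 0.270, exact permutation), with a limma adjusted p of 0.279 for Cldn5 or Vwf as regressor at its highest. Their r was 0.301 without rats 3 and 6 (those most distant from the Cldn5 median), so the relation rests on these rats. It was 0.753 without rat 3 alone and 0.917 without rats 8 and 9. Cldn5 and Slco1a4 had r = 0.805 (p = 0.0139, exact permutation) and rho = 0.460 (p = 0.215, exact permutation), with -0.0120 without rats 3 and 6, 0.877 without rats 8 and 9 and a limma adjusted p of 0.333 at its highest. This relation also rests on rats 3 and 6.

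Cldn5 and Slc2a1 did not rest on these rats. Their r was 0.746 (p = 0.0172, exact permutation) and their rho 0.800 (p = 0.0138, exact permutation), with 0.807 without rats 3 and 6, 0.889 without rats 8 and 9 and 0.675 without rat 3. The limma adjusted p was 0.388 at its highest. Slco1a4 and Abcb1a, the carriers of drugs and anions, had r = 0.641 (p = 0.0687, exact permutation) and rho = 0.443 (p = 0.236, exact permutation), with 0.369 without rats 3 and 5, 0.701 without rats 8 and 9 and 0.227 without rat 3. The receptors Flt1 and Kdr had r = 0.575 (p = 0.141, exact permutation) and rho = 0.533 (p = 0.148, exact permutation). Without rats 3 and 9 the r of Flt1 and Kdr was 0.170, without rats 8 and 9 it was 0.117 and without rat 3 it was 0.714 (p = 0.0568, exact permutation).

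**Figure D2:**
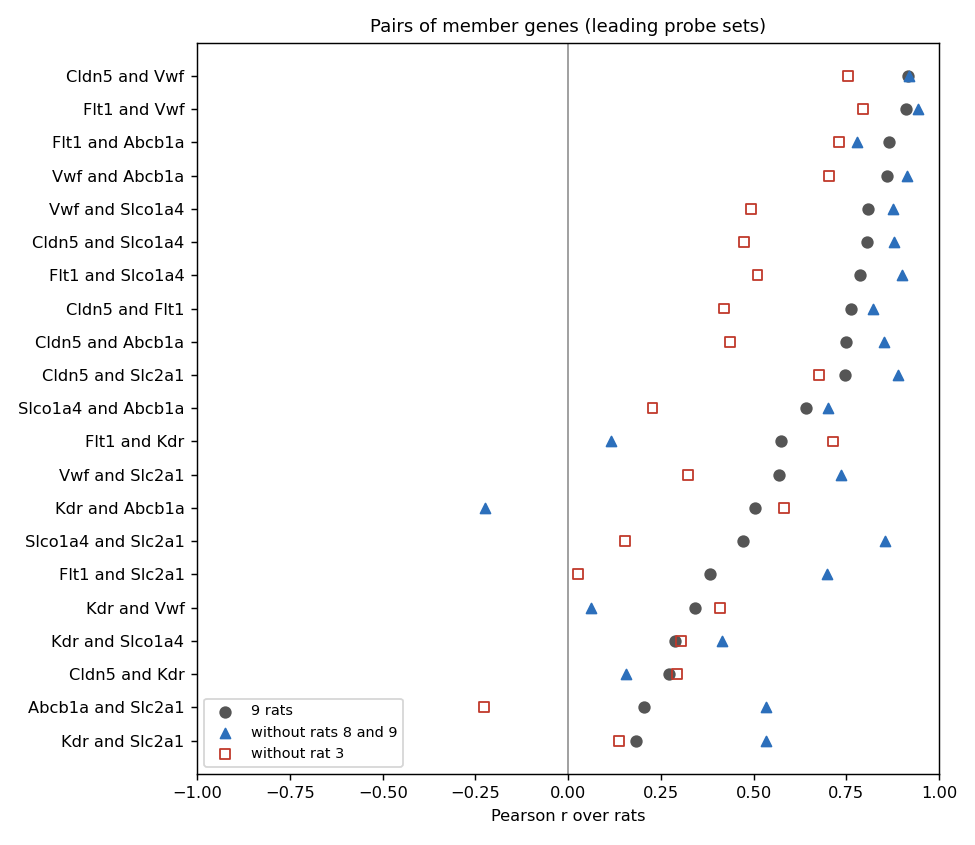
Pearson r over rats for the 21 pairs of member genes (rows), from all 9 rats (grey circles), without rats 8 and 9 (blue triangles) and without rat 3 (open red squares). All 21 values from 9 rats lie above 0, and every pair that does not include Kdr shifts to lower r without rat 3, as does that of Kdr and Slc2a1.

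The question put to each gene was whether its level went with a behaviour across the 9 rats. For startle, the 9 kept member probe sets all had a positive slope, where 61.5% of all kept probe sets did, and their median slope was 0.096 log2 units per SD of startle beside 0.021 over all. Without rat 3 the median was 0.035 beside 0.024 over all, and 8 of 9 were positive. Over all 9 rats none passed a limma adjusted p of 0.05, as was the case for 0% of all kept probe sets, and 2 of the 9 had an unadjusted limma p under 0.05, beside 13.2% of all. Both were transporters.

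Slco1a4 (1387093_at) had a fitted startle slope (log2 units per SD) of 0.25 ± 0.060 (SE, n = 9). Its order across rats followed that of startle apart from rat 1, which had the second highest startle value, 458.6, and the median level of Slco1a4, and a small exchange among rats 5, 7 and 8, which were lowest in both. The relation had r = 0.831 (p = 0.00457, exact permutation) and rho = 0.879 (p = 0.00322, exact permutation), with a limma adjusted p of 0.359. Without rats 1 and 3 (those most distant from the startle median), r was 0.918 (p = 0.00298, exact permutation). It was 0.810 without rats 8 and 9 (p = 0.0234, exact permutation) and 0.728 without rat 3 (p = 0.0386, exact permutation). In all 19 alternative fits the slope was positive, from 0.17 to 0.33, with an unadjusted limma p under 0.05, while the limma adjusted p lay between 0.230 and 0.630. The second probe set of Slco1a4 (1387094_at) showed a slope of 0.045 ± 0.13 and r = 0.115 (p = 0.764, exact permutation), with rho = 0.100 (p = 0.810, exact permutation). Its r was 0.670 without rats 1 and 3 and -0.138 without rats 8 and 9. The difference between the probe sets was not tested.

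The second Abcb1a probe set (1370464_at) had a fitted startle slope (log2 units per SD) of 0.22 ± 0.072 (SE, n = 9), with r = 0.734 (p = 0.0138, exact permutation), rho = 0.700 (p = 0.0433, exact permutation) and a limma adjusted p of 0.359. Correlation was 0.411 without rats 1 and 3, 0.565 without rat 3 alone and 0.735 without rats 8 and 9. It was 0.799 without rat 1, which had the second highest startle value. The first Abcb1a probe set (1370465_at) showed a slope of 0.15 ± 0.11 and r = 0.417 (p = 0.265, exact permutation), with rho = 0.322 (p = 0.403, exact permutation). Its r was 0.269 without rats 1 and 3, 0.349 without rats 8 and 9 and 0.00817 without rat 3.

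Among the other members, Flt1 had a startle slope of 0.066 ± 0.034, Vwf and Cldn5 0.096 ± 0.052 and 0.097 ± 0.061, and Kdr and Slc2a1 0.094 ± 0.087 and 0.052 ± 0.074 (SE, n = 9). After quantile normalization the slopes of the dim Flt1 and Vwf fell to 0.031 ± 0.030 and 0.062 ± 0.041. Those of Cldn5, Kdr and Slc2a1 were then 0.094, 0.084 and 0.047. The Slc2a1 slope was 0.18 ± 0.059 without rats 8 and 9 and 0.17 ± 0.059 without rat 8 alone, with limma adjusted p of 0.265 and 0.297. Slc2a1 had r = 0.240 (p = 0.528, exact permutation) and rho = 0.167 (p = 0.678, exact permutation), with -0.124 without rats 1 and 3, 0.788 without rats 8 and 9 (p = 0.0387, exact permutation) and -0.0835 without rat 3. Flt1 had r = 0.665 (p = 0.0472, exact permutation), rho = 0.617 (p = 0.0857, exact permutation) and a limma adjusted p of 0.422, with r = 0.334 without rats 1 and 3, 0.785 without rats 8 and 9 and 0.419 without rat 3 (p = 0.296, exact permutation). Kdr had r = 0.349 (p = 0.377, exact permutation) but rho = 0.733 (p = 0.0311, exact permutation). Rat 9 was its lowest rat by 0.46. Its r was 0.154 without rats 1 and 3 and 0.642 without rats 8 and 9. Cldn5 had r = 0.498 (p = 0.172, exact permutation) and rho = 0.300 (p = 0.437, exact permutation), with 0.358 without rats 1 and 3, 0.615 without rats 8 and 9 and 0.0270 without rat 3. Vwf had r = 0.566 (p = 0.106, exact permutation) and rho = 0.417 (p = 0.270, exact permutation), with 0.337, 0.672 and 0.184 in that order.

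Single rats moved the startle count. Without rat 1, 5 of the 9 member probe sets had an unadjusted limma p under 0.05, beside 10.8% of all probe sets, and without rat 8, 4 did, beside 13.4%. Without rat 3 only Slco1a4 (1387093_at) did, with a slope of 0.17 ± 0.064, beside 9.35% of all. With the dim probe sets kept, Flt1 (1377113_at) and Ly6c joined, beside 15.5% of all, and the Ly6c slope was 0.040 ± 0.017. None of these fits gave a member a limma adjusted p under 0.05.

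**Figure D3:**
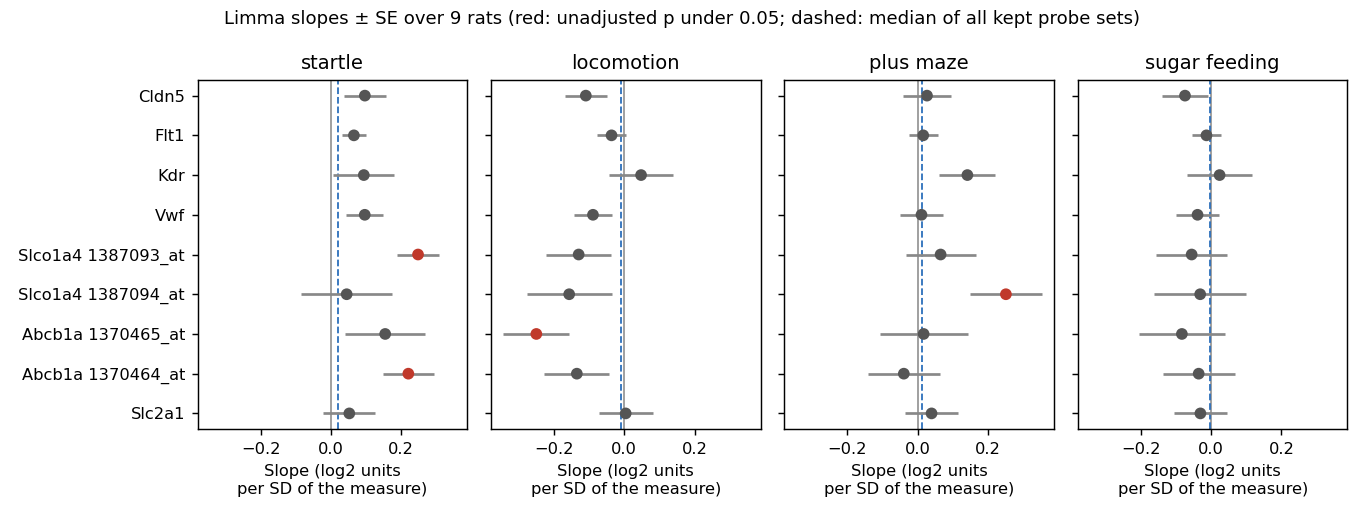
Limma slopes in log2 units per SD of each behavioural measure for the 9 kept member probe sets, with SE bars, over 9 rats; red marks an unadjusted p under 0.05 and the dashed line is the median slope of all kept probe sets. Startle slopes are all above 0, with Slco1a4 (1387093_at) at 0.25 and Abcb1a (1370464_at) at 0.22, and sugar feeding slopes lie near 0.

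For locomotion, 2 of the 9 slopes were positive, beside 41% of all, and their median was -0.11 log2 units per SD, beside -0.010 over all kept probe sets. Without rat 3, 4 of the 9 were positive, the median was -0.016 beside -0.0059 over all, and 0 had an unadjusted limma p under 0.05. None of the 9 in the fit of all rats passed a limma adjusted p of 0.05 (0% of all), and 1 had an unadjusted limma p under 0.05, beside 1.96% of all. That was the first Abcb1a probe set (1370465_at), with a slope of -0.25 ± 0.094 (SE, n = 9), r = -0.675 (p = 0.0481, exact permutation), rho = -0.814 (p = 0.0110, exact permutation) and a limma adjusted p of 1.00. Rat 3, with the lowest locomotion, had the highest level, and rat 6, next lowest, the second highest. The r was -0.520 without rats 1 and 3 (those most distant from the locomotion median), -0.518 without rat 3 and -0.821 without rats 8 and 9 (p = 0.0321, exact permutation). The second Abcb1a probe set (1370464_at) showed a slope of -0.14 ± 0.092 and r = -0.450 (p = 0.229, exact permutation), with rho = -0.433 (p = 0.250, exact permutation), and its r was -0.520 without rats 1 and 3 and -0.397 without rats 8 and 9. Without rat 3 alone it was 0.0267 (p = 0.948, exact permutation). Cldn5 had a slope of -0.11 ± 0.059 and r = -0.564 (p = 0.117, exact permutation), with rho = -0.650 (p = 0.0666, exact permutation). Its r was -0.0951 without rats 1 and 3, -0.631 without rats 8 and 9 and -0.296 without rat 3. The Slco1a4 probe sets had slopes of -0.13 ± 0.093 and -0.16 ± 0.12. The r of the bright one (1387093_at) was -0.435 over 9 rats (p = 0.243, exact permutation) with rho = -0.402 (p = 0.283, exact permutation), and -0.240 without rats 1 and 3, -0.339 without rats 8 and 9 and -0.0718 without rat 3. Kdr, at 0.048 ± 0.091, and Slc2a1, at 0.0039 ± 0.077, were the members with positive slopes.

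For the plus maze, 8 of the 9 slopes were positive, beside 58.2% of all, with a median of 0.026 log2 units per SD beside 0.011. The median was -0.0057 without rat 6, with 4 of 9 positive, and 0.091 without rat 3, with 9 of 9 positive and 3 at an unadjusted limma p under 0.05 (4.36% of all). Over all 9 rats none passed a limma adjusted p of 0.05 (0% of all), and 1 had an unadjusted limma p under 0.05, beside 2.99% of all. It was the second Slco1a4 probe set (1387094_at), at 0.25 ± 0.10 (SE, n = 9), with r = 0.643 (p = 0.0651, exact permutation), rho = 0.437 (p = 0.240, exact permutation) and a limma adjusted p of 0.999. Rats 2 and 6, which share the highest plus maze value, 18.7, were also its highest rats, and without them r was -0.319. The relation rests on these rats, and r was 0.591 without rats 8 and 9. Kdr showed a slope of 0.14 ± 0.080, r = 0.526 (p = 0.128, exact permutation) and rho = 0.723 (p = 0.0340, exact permutation), with 0.611 without rats 2 and 6 and 0.532 without rats 8 and 9. The bright Slco1a4 probe set (1387093_at) had r = 0.218 (p = 0.584, exact permutation) and rho = 0.219 (p = 0.563, exact permutation) over 9 rats and r = 0.810 without rat 3 (p = 0.0149, exact permutation), which combined the highest level with a plus maze value of 0. Its r was -0.336 without rats 2 and 6 and 0.163 without rats 8 and 9.

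For sugar feeding no member probe set had an unadjusted limma p under 0.05, beside 1.4% of all, or an adjusted p under 0.05 (0% of all). The slopes ran from -0.083 for Abcb1a (1370465_at) to 0.024 for Kdr, and 1 of 9 was positive, beside 46.8% of all. Cldn5 had r = -0.384 (p = 0.291, exact permutation) and rho = -0.467 (p = 0.213, exact permutation), with -0.263 without rats 4 and 8 (those most distant from the sugar feeding median), and -0.440 without rats 8 and 9. In all, 36 relations between a member probe set and a behaviour were computed, and their limma p-values were adjusted over all kept probe sets of each measure.

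**Figure D4:**
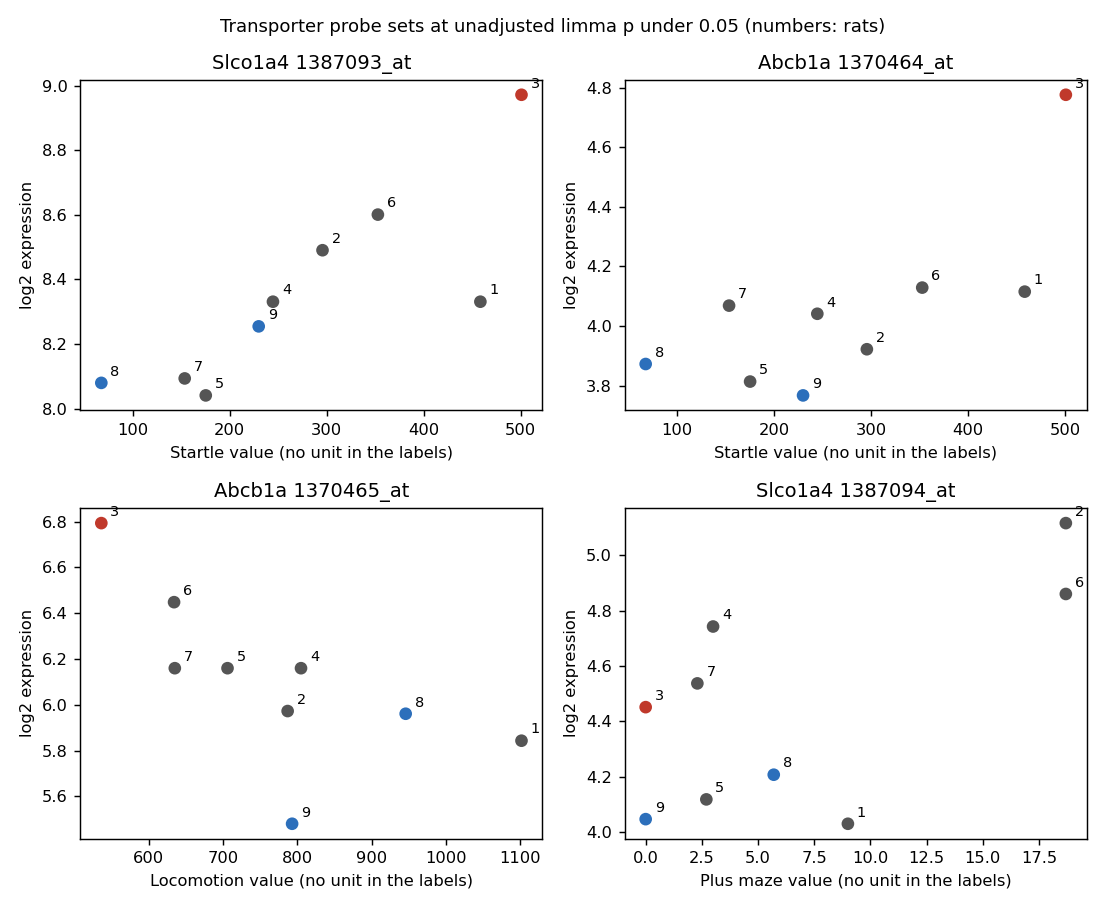
Log2 expression against the behavioural value for the 4 combinations of a member probe set and a measure at an unadjusted limma p under 0.05; each point is a rat with its number, rat 3 in red and rats 8 and 9 in blue. Slco1a4 (1387093_at) increases with startle apart from rat 1, and the relation of Slco1a4 (1387094_at) with the plus maze has rats 2 and 6 highest on both axes.

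Other genes of the vessel wall and barrier were taken from 4 lists. Of junction and adhesion genes 6 of 19 were kept, of angiogenic ligands and receptors 9 of 23, of other barrier transporters 14 of 24 and of endothelial transcription factors and enzymes 8 of 28. None of these kept genes passed a limma adjusted p of 0.05 for any of the 4 measures. At an unadjusted limma p under 0.05 with startle there were 0 of 6 junction genes, 3 of 9 angiogenic genes, 3 of 14 transporters and 3 of 8 factors and enzymes, beside 13.2% of all probe sets. Median startle slopes were 0.039, 0.097, 0.035 and 0.031 for these lists in that order.

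Rat 3 was highest for 2 of 6, 4 of 9, 5 of 14 and 3 of 8 genes of these lists, beside 19.9% of all probe sets. Ramp2, Adgrl4, Procr, Slc3a2 and Tfrc, all at an unadjusted limma p under 0.05 with startle, had rat 3 highest and rat 9 lowest. So did Vegfb and Adgra2 of the angiogenic list, whose unadjusted limma p with startle was not under 0.05. Ramp2, which lets the receptor of adrenomedullin signal in endothelium, had a startle slope (log2 units per SD) of 0.21 ± 0.077 (SE, n = 9) and ran from 5.56 to 6.61. Adgrl4, an adhesion G protein-coupled receptor of endothelium, had 0.29 ± 0.12 and lay 1.23 higher in rat 3 than in the mean of the other rats. Its mean of 3.27 was close to the lowest kept, 3.22, and its mean over the other rats lay below it. Adgrl4 therefore passed the filter only through rat 3, which had the highest startle value. Its slope, its rat 3 difference and its place in the counts of its list depend on that value. Procr, the endothelial receptor of protein C, had 0.16 ± 0.057. Among carriers, Slc3a2, the heavy chain of the large amino acid transporter, had 0.17 ± 0.055 and Tfrc, the transferrin receptor, 0.17 ± 0.060. Ramp2, Adgrl4, Procr, Slc3a2 and Tfrc had limma adjusted p between 0.359 and 0.362. Foxo1, a forkhead transcription factor of the same list as Ramp2, had a slope of -0.81 ± 0.37 (limma adjusted p of 0.384) and lay 0.84 lower in rat 3 than in the mean of the other rats. Its mean of 3.23 was close to the lowest kept, and it passed the filter only through rat 8, at 5.62. Rat 8 also had the lowest startle value, 67.7, so the slope and difference of Foxo1 depend on the value that let it pass.

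Vegfa, the growth factor that acts on Flt1 and Kdr and is made mainly by other cells, ran the other way. It was lowest in rat 3, at 6.63, and highest in rat 5, at 7.61, with a startle slope of -0.23 ± 0.071 (SE, n = 9) and a limma adjusted p of 0.359. Nrp1, a coreceptor of Vegfa, had 0.14 ± 0.042, with rat 1 highest and rat 9 lowest, and Jag1, a ligand of Notch receptors, 0.11 ± 0.032, both with a limma adjusted p of 0.359. The cationic amino acid carrier Slc7a1 had -0.16 ± 0.047 (limma adjusted p of 0.359) and was highest in rat 8. For the plus maze, Cav1, the coat protein of caveolae, had 0.23 ± 0.079 and Slc22a8, an organic anion transporter, 0.52 ± 0.21, both with a limma adjusted p of 0.999, and rat 2 was highest for both.

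Markers of other cells also differed in rat 3. Against the mean of the other 8 rats, the median difference in rat 3 was 0.41 log2 units for the 7 member genes and 0.022 over all kept probe sets. For the lists of junction and adhesion genes, angiogenic genes, other transporters and endothelial factors it was 0.085, 0.21, 0.12 and 0.034. For 10 of 11 astrocyte genes that were kept it was 0.38, for 8 of 15 microglia and macrophage genes 0.41, and for 5 of 15 pericyte and smooth muscle genes 0.11. It was 0.29 for 3 of 12 red blood cell and platelet genes, 0.22 for 7 of 9 oligodendrocyte genes, -0.12 for 11 of 12 neuronal genes and -0.14 for 10 of 12 fibroblast and meningeal genes. Within the lists the genes differed: Slc1a2, a glutamate transporter of astrocytes, was 0.68 higher in rat 3 while Gfap, an intermediate filament protein, was 0.61 lower, and Pdgfrb, the receptor that marks pericytes, was 0.67 higher while Acta2, smooth muscle actin, was 0.078 lower.

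The mean log2 level of a list also varied over the rats. Astrocyte genes ran from 9.46 in rat 7 to 9.95 in rat 3, microglia and macrophage genes from 5.73 in rat 9 to 6.31 in rat 3 and neuronal genes from 10.18 in rat 3 to 10.67 in rat 8. Pericyte and smooth muscle genes ran from 4.54 in rat 5 to 4.84 in rat 6, and fibroblast and meningeal genes from 4.91 in rat 5 to 6.59 in rat 2. Red blood cell and platelet genes ran from 6.30 in rat 5 to 7.30 in rat 8, and the choroid plexus list had 1 of 7 genes kept. Neuronal and astrocyte markers were thus present, as in the labelled cortex. The part of these cell types in the levels of the barrier genes was not tested.

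**Figure D5:**
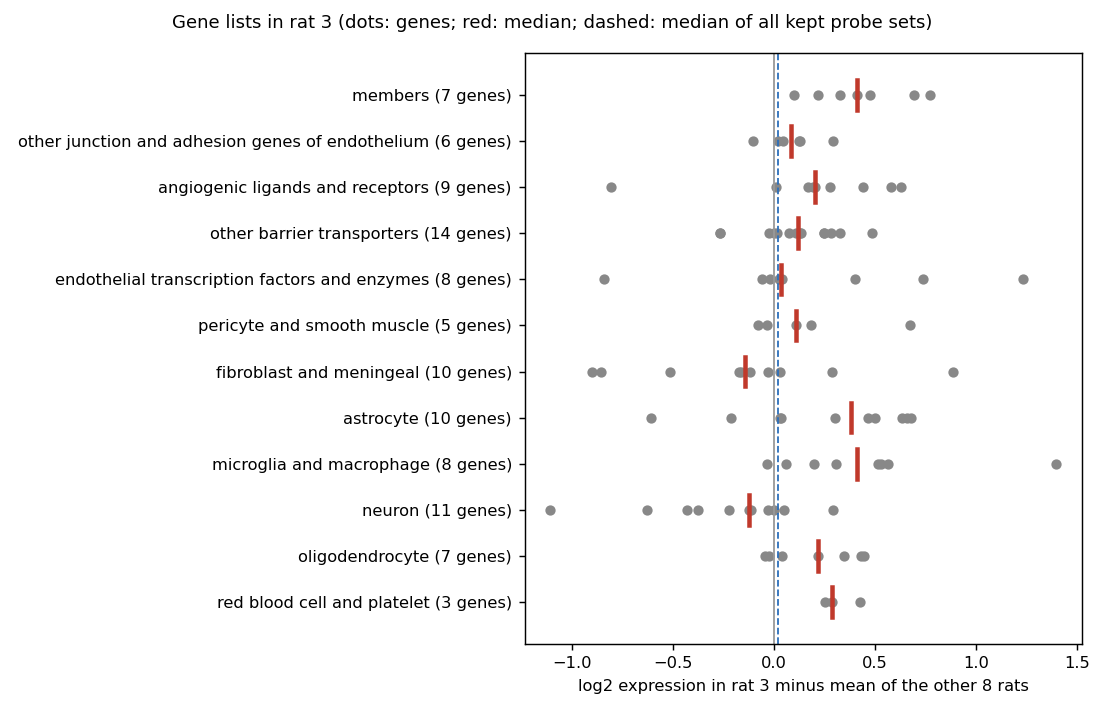
Log2 expression in rat 3 minus the mean of the other 8 rats for each kept gene (grey dots) of 12 gene lists, with the list median in red and the median of all kept probe sets as a dashed line. Member genes have a median of 0.41, close to microglia and macrophage genes at 0.41 and astrocyte genes at 0.38, and neuronal and fibroblast lists lie below 0.

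The genes most like the members were looked for among 6763 other genes, by the lower of the Pearson r with the members' mean z score over 9 rats and over the 7 rats without rats 8 and 9. They were Pnp, S100a16, Micall1, Sec23b, Yif1a, Aass, Kifc3 and Slc5a7, with lower r between 0.941 and 0.975. Pnp, a phosphorylase of purine nucleosides, ran from 8.03 to 8.91, and S100a16, a calcium-binding protein, from 7.73 to 8.68. Kifc3 ran from 6.43 to 6.94, Sec23b from 4.68 to 5.33 and Aass from 3.33 to 4.17. Others varied little: Yif1a ran from 6.60 to 6.70 and Micall1 from 4.12 to 4.36. Slc5a7 ran from 3.10 to 3.46, and its mean of 3.25 was close to the lowest kept, 3.22. Sec23b had the same value in rats 1, 2, 5 and 8. Without rat 3 the r of these 8 genes with the score lay between 0.867 and 0.952. All 8 were highest in rat 3, and none was in the vascular or cell type lists. Each of these genes shares its arrays with the score, and no test was made of these likenesses.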

How the data were processed

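Per the submitters' processing notes, the authors made the deposited log2 values with GCRMA in R 2.6.2. The method models background from probe sequence, then normalizes arrays and combines probes into probe sets. Other settings: not given in the sources used here. The table held 15923 probe sets. The 57 controls were left out, then the lowest 40% by mean. Symbols came from the platform annotation, which gave 12783 probe sets 1 symbol, 312 several and 2771 none.

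Slopes came from limma 3.58.1 (lmFit and eBayes, R 4.3.3), which fitted log2 expression per SD of each measure over the 9 rats with 7 residual degrees of freedom, two-sided, with Benjamini-Hochberg adjustment over the 9520 kept probe sets. Permutation tests were two-sided over all 362880 pairings of 9 rats (40320 for 8 and 5040 for 7) in numpy 2.4.6, pandas 2.3.3, scipy 1.17.1 and Python 3.11.15, with figures in matplotlib 3.10.9. Every member was named, with the kept probe set of highest mean leading. From each companion list up to 4 genes by smallest p per measure were eligible, and the 8 most similar genes were named. The genes quoted for rat 3 alone were chosen after their values were seen. The members, lists and tests were chosen with earlier results of these data known. Each rat has 1 array, so p-values measure the spread between animals together with that between arrays. Alternatives were no filter or a 70% filter, quantile normalization, an intensity trend with robust moderation, array weights, a term for rats 8 and 9 or leaving them out, ranks, the other measures as covariates, and leaving out the 2 most distant rats or each rat in turn. For member pairs, the other kept probe sets of Slco1a4 and Abcb1a were also used in place of the leading ones. The fits were tested on simulated data.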

Additional observations from a re-analysis of the deposited data

Results flagged for a closer look

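Of 13 member probe sets and 4 behavioural measures checked for a single rat far from the others, 2 probe sets had one, and chance marks about 1 in 20 such groups. For the second Abcb1a probe set (1370464_at), rat 3 was high, and its gap to the next rat was 0.641 of the whole range. For Kdr, rat 9 was low, with a gap of 0.527 of the range. Rat 3 was also the highest for the other Abcb1a probe set and rat 9 the lowest for both Abcb1a probe sets.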

How the results depend on the processing

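Of 660 slopes under the alternatives 58 took the opposite sign, and 0 of the member slopes passed a limma adjusted p of 0.05 in any fit. The cause of these changes was not tested. The count of member probe sets at an unadjusted p under 0.05 changed as follows, with the share of all probe sets tested in parentheses. For startle, 2 (13.2%) became 4 with no filter (15.5%) and 1 with the lowest 70% left out (12.5%). It became 1 without the 2 farthest rats (7.28%) and 3 without rats 8 and 9 (14.6%). With each rat left out in turn it was 1 to 5 (9.35% to 13.9%). For locomotion, 1 (1.96%) became 0 with the 70% filter (1.49%), and 0 without the 2 farthest rats, where the share rose to 13.2%. It became 2 after quantile normalization (2.16%) and with ranks (2.32%), and 3 with the other measures as covariates (2.48%). With each rat left out it was 0 to 2 (1.63% to 9.84%). For the plus maze, 1 became 4 with array weights, where the share of all probe sets went from 2.99% to 12.2%. It became 0 with the 70% filter (2.56%) and with a term for rats 8 and 9 (3.26%). It was also 0 without these rats (3.58%) and without the 2 farthest rats (1.5%). With each rat left out it was 0 to 3 (2.07% to 4.36%). For sugar feeding, 0 (1.4%) became 1 with the other measures as covariates (1.73%). With the 70% filter 3 member probe sets were left to test. Ordered member pairs past an adjusted p of 0.05 numbered 6 with no filter (Flt1 called 20.2% of all probe sets and Vwf 3.97%). They numbered 2 with an intensity trend and robust moderation (Flt1 called 3.36%) and 3 with array weights (Vwf called 6.47%). With each rat left out they numbered 0 to 1, with 1 without rat 1, where Vwf called 3.03%. After quantile normalization 2 member probe sets had rats 8 and 9 beyond the other 7. The share of all kept probe sets was not computed after that step, so nothing is read from this count.

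With a term for rats 8 and 9 the slopes of opposite sign were, for locomotion -0.027 Slc2a1, for plus maze -0.0020 Vwf, -0.053 Abcb1a 1370465_at, for startle -0.066 Slco1a4 1387094_at, for sugar feeding 0.017 Slco1a4 1387094_at. With array quality weights the slopes of opposite sign were, for locomotion -0.043 Slc2a1, for plus maze 0.028 Abcb1a 1370464_at, for startle -0.021 Slco1a4 1387094_at. With ranks of the measure the slopes of opposite sign were, for locomotion -0.020 Slc2a1, for plus maze -0.014 Cldn5, -0.011 Vwf, -0.015 Abcb1a 1370465_at, for sugar feeding 0.022 Slc2a1. With the other 3 measures as covariates the slopes of opposite sign were, for locomotion -0.011 Kdr, for startle -0.0068 Slco1a4 1387094_at, for sugar feeding 0.0014 Cldn5, 0.028 Flt1, 0.033 Vwf, 0.095 Slco1a4 1387093_at, 0.24 Slco1a4 1387094_at, 0.11 Abcb1a 1370465_at, 0.065 Abcb1a 1370464_at. Without the 2 rats farthest from the median the slopes of opposite sign were, for plus maze -0.18 Cldn5, -0.11 Vwf, -0.25 Slco1a4 1387093_at, -0.20 Slco1a4 1387094_at, -0.26 Abcb1a 1370465_at, for startle -0.041 Slc2a1, for sugar feeding -0.093 Kdr, 0.0081 Abcb1a 1370464_at, 0.076 Slc2a1. Without the arrays of rats 8 and 9 the slopes of opposite sign were, for locomotion -0.049 Slc2a1, for plus maze -0.0065 Flt1, -0.012 Vwf, -0.082 Abcb1a 1370465_at, for startle -0.057 Slco1a4 1387094_at, for sugar feeding 0.0070 Slco1a4 1387094_at. Leaving out each rat in turn gave slopes on both sides of 0 in locomotion for Abcb1a 1370464_at -0.31 to 0.0041, Flt1 -0.088 to 0.00074, Kdr -0.030 to 0.088, Slc2a1 -0.047 to 0.081, and plus maze for Abcb1a 1370464_at -0.090 to 0.059, Abcb1a 1370465_at -0.098 to 0.12, Cldn5 -0.019 to 0.091, Flt1 -0.0057 to 0.045, Vwf -0.054 to 0.065, and startle for Slc2a1 -0.020 to 0.17, Slco1a4 1387094_at -0.0091 to 0.16, and sugar feeding for Kdr -0.0018 to 0.051, Slc2a1 -0.083 to 0.16, Slco1a4 1387094_at -0.32 to 0.042. No paired analysis was possible because the labels define 1 group.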

Other observations

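The deposited values held exact ties between arrays for 4 member probe sets. The first Abcb1a probe set (1370465_at) had the same value, 6.16, in rats 4, 5 and 7, and the bright Slco1a4 probe set (1387093_at) the same value, 8.33, in rats 1 and 4. A dim Flt1 probe set (1369087_at) was tied at 2.93 in rats 6 and 8, and Ly6c at 2.36 in rats 4 and 8.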
